A study of Bos taurus with 10 samples.

Results

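Small leucine-rich proteoglycans are secreted matrix proteins with a curved core of leucine-rich repeats. They bind collagen fibrils and control how thick the fibrils grow and how they are spaced, and several also bind growth factors such as TGF-beta. In skeletal muscle they lie in the connective tissue sheaths around fibres and fibre bundles and are made mainly by fibroblasts. The 7 genes described here are DCN (decorin), BGN (biglycan), LUM (lumican), FMOD (fibromodulin), KERA (keratocan), PRELP and OGN (osteoglycin, or mimecan). They were chosen by name. A probe set counted as theirs if the platform annotation gave it exactly 1 gene symbol and that symbol was 1 of the 7. All 7 genes were measured, by 9 probe sets in all, among 9155 named genes on the array, and all 7 were among the 6271 genes that were tested because their mean level exceeded the probe set median, a log2 level of 6.98. BGN and PRELP each had 2 probe sets, of which the brighter stands for the gene.

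The 10 samples were taken as skeletal muscle of Hanwoo, a Korean native beef breed, and each was hybridised to 1 Affymetrix bovine array. Breed, muscle and age stand only in the label of the first sample. It gives Hanwoo, the longissimus dorsi, which runs along the back, and about 2 years of age. The study's purpose was to relate expression to beef traits of these cattle, but the labels used here hold no trait, sex, treatment or genotype, so the 10 samples form 1 group and covariation between genes is the comparison the data allow. The samples are called animals 1 to 10 after their sample numbers. Nothing else in the labels marks them as separate animals, so the p-values measure the spread between these samples.

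Levels are log2(signal + 16) after quantile normalization, so a difference of 1 is about a doubling for bright genes and understates the change of dim ones. Levels of different genes come from different probe sets and are not set against each other. Animal 5 stood apart in the added poly(A) control RNAs, whose 3' signal exceeded the 5' signal by 2.67 on the log2 scale in animal 5 and by 0.78 to 1.06 in the other 9. The tissue label was checked with contractile and other muscle fibre genes. All 12 that were measured were bright, with means from 15.22 for DES to 16.05 for TNNC1. In whole muscle, fewer cells of a type and less RNA per cell cannot be told apart.

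The proteoglycan genes varied widely between animals. KERA, which encodes a keratan sulfate proteoglycan best known from the cornea, spanned 4.61 on the log2 scale, and FMOD, a fibromodulin gene active in tendon and other fibrous tissue, spanned 3.74. The low end of both was animal 1, whose levels of both lay below the filter level. Without animal 1 the span was 3.49 for KERA and 2.36 for FMOD, and without animal 6 it was 3.27 for KERA and 3.25 for FMOD. Of the 7 genes, 6 had a standard deviation (SD) above 0.5, as did 22.1% of the 6271 tested genes. The median SD of all tested genes was 0.36. By the probe sets used, animal 6 had the highest level of 6 of the 7 genes, PRELP being the exception.

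**Figure D1:**
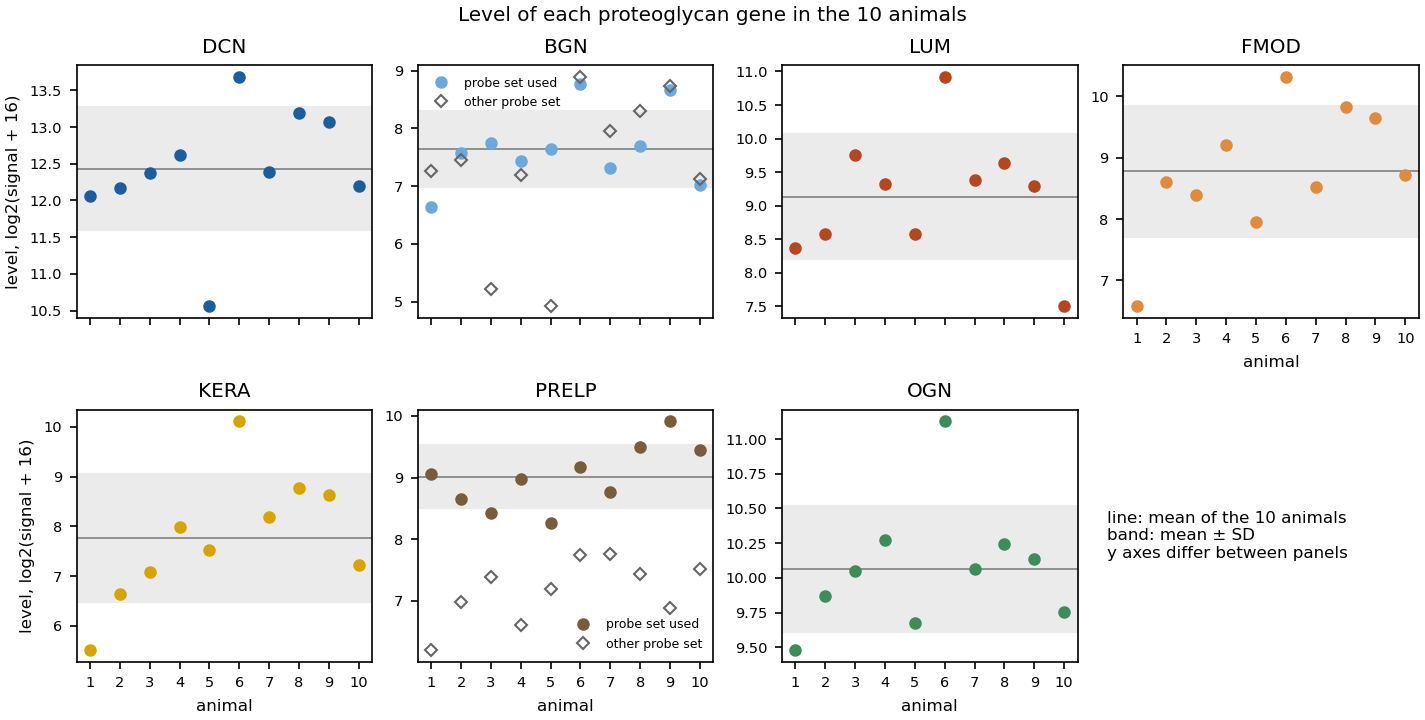
Level of each of the 7 proteoglycan genes, as log2(signal + 16) on the y axis, in animals 1 to 10 on the x axis. The filled points are the probe set used for the gene, the open diamonds are the second probe set of BGN and PRELP, the line is the mean and the grey band is the mean ± SD of the 10 animals; y axes differ between panels. Animal 6 is the highest filled point in 6 of the 7 panels, and animal 5 lies alone at 10.56 for DCN.

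DCN and BGN encode the 2 members that carry chondroitin or dermatan sulfate chains. DCN had a mean of 12.43 ± 0.84 (SD, n = 10), with a lowest level of 10.56, a median of 12.38 and a highest level of 13.68. In deposited signal units these 3 values were 1544, 5311 and 14370. The low end was animal 5 alone, since the next lowest animal stood at 12.06, and without animal 5 the SD of DCN was 0.55. BGN had a mean of 7.65 ± 0.66 (SD, n = 10) and ran from 6.63 over a median of 7.61 to 8.77. Animals 6 and 9, at 8.77 and 8.66, were apart from the other 8, none of which was above 7.74. The second BGN probe set covered a wider span, from 4.92 to 8.89 with an SD of 1.34. It was also high in animals 6 and 9, but it was low in animals 3 and 5, at 5.21 and 4.92, where the probe set used for the gene stood at 7.74 and 7.64. The r between both BGN probe sets was 0.384. The median was 0.343 over the 1315 genes with 2 or more tested probe sets, taking the 2 brightest of each.

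LUM, FMOD, KERA and PRELP form a second class, whose first 3 members carry keratan sulfate chains. LUM had a mean of 9.13 ± 0.93 (SD, n = 10) and ran from 7.50 in animal 10 over a median of 9.31 to 10.92 in animal 6. FMOD had a mean of 8.78 ± 1.06 (SD, n = 10), with 6.58 in animal 1, a median of 8.66 and 10.32 in animal 6. KERA, at a mean of 7.76 ± 1.28 (SD, n = 10), also had its ends in animals 1 and 6, at 5.51 and 10.12, with a median of 7.75. The next values towards the middle were 6.63 and 8.77, so the ends of KERA lay more than 1 log2 unit from their neighbours. Its SD was above that of 99.6% of the tested genes, and those of FMOD and LUM were above 98.9% and 98.0%. With the arrays normalized again without both animals 1 and 6, the SD was 0.78 for KERA and 0.65 for FMOD.

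PRELP, whose protein has a heparin-binding end and links basement membranes to collagen, had a mean of 9.02 ± 0.51 (SD, n = 10). It ran from 8.26 in animal 5 over a median of 9.02 to 9.92 in animal 9, a 3.15-fold range. In animal 6 PRELP stood at 9.16, only 0.15 above its mean. The second PRELP probe set, at 7.17 ± 0.51 (SD, n = 10), did not follow the first: their r was -0.06, and animal 1 was lowest in the second at 6.20 but near the mean in the first at 9.05. In the second, animal 6 stood at 7.75, close to the highest level of 7.76 in animal 7. OGN, the only member here of its class, had a mean of 10.07 ± 0.45 (SD, n = 10), a lowest level of 9.48 in animal 1, a median of 10.05 and a highest level of 11.13 in animal 6. Its other 9 animals lay within 9.48 to 10.27, and without animal 6 its SD was 0.27. OGN was thus the member with the smallest SD, above that of 70.6% of the tested genes.

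**Figure D2:**
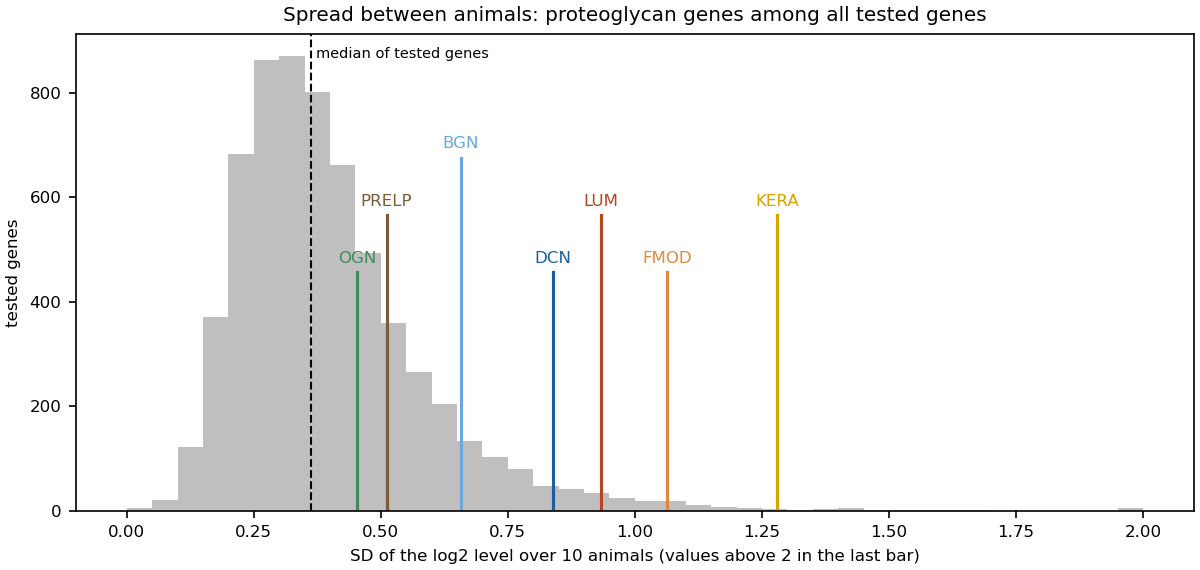
Histogram of the SD of the log2 level over the 10 animals for the 6271 tested genes (x axis, SD; y axis, number of genes), with the 7 proteoglycan genes as coloured lines and the median of the tested genes as a dashed line. The heights of the coloured lines carry no value. All 7 lines lie to the right of the dashed line at 0.36, from OGN at 0.45 to KERA at 1.28.

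Across the 7 genes the same animals tended to be high or low. Animals 6, 8 and 9 were above the mean of all 7 genes, and animals 2 and 5 were below the mean of all 7. Averaged over the 7 genes, animal 6 lay 1.32 above the gene means and animal 1 lay 1.02 below them. Animal 1 had the lowest level of 4 genes (BGN, FMOD, KERA and OGN), although its PRELP level was 0.03 above the mean. Animal 5 was lowest for DCN and PRELP, and animal 10 for LUM. Only 4 of the 70 values lay below the level of 6.98 used as the filter: 2 of KERA, 1 of BGN and 1 of FMOD.

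Pairwise correlations over the 10 animals described this shared order. The 21 pairs had r between 0.03 and 0.90 (median 0.72), and 16 of them were above 0.5. The 15 pairs without PRELP had r from 0.52 to 0.90 (median 0.76). The 6 pairs with PRELP had r from 0.03, with LUM, to 0.66, with DCN (median 0.33). Without animals 1 and 6, which were the ends of several genes, the 15 pairs without PRELP had r from 0.30 to 0.86 with a median of 0.50. The 6 pairs with PRELP then had r from -0.05 to 0.86 with a median of 0.52. PRELP thus had lower r than the rest over all 10 animals, but not without animals 1 and 6. The r of PRELP are those of its brighter probe set, which the second did not follow.

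**Figure D3:**
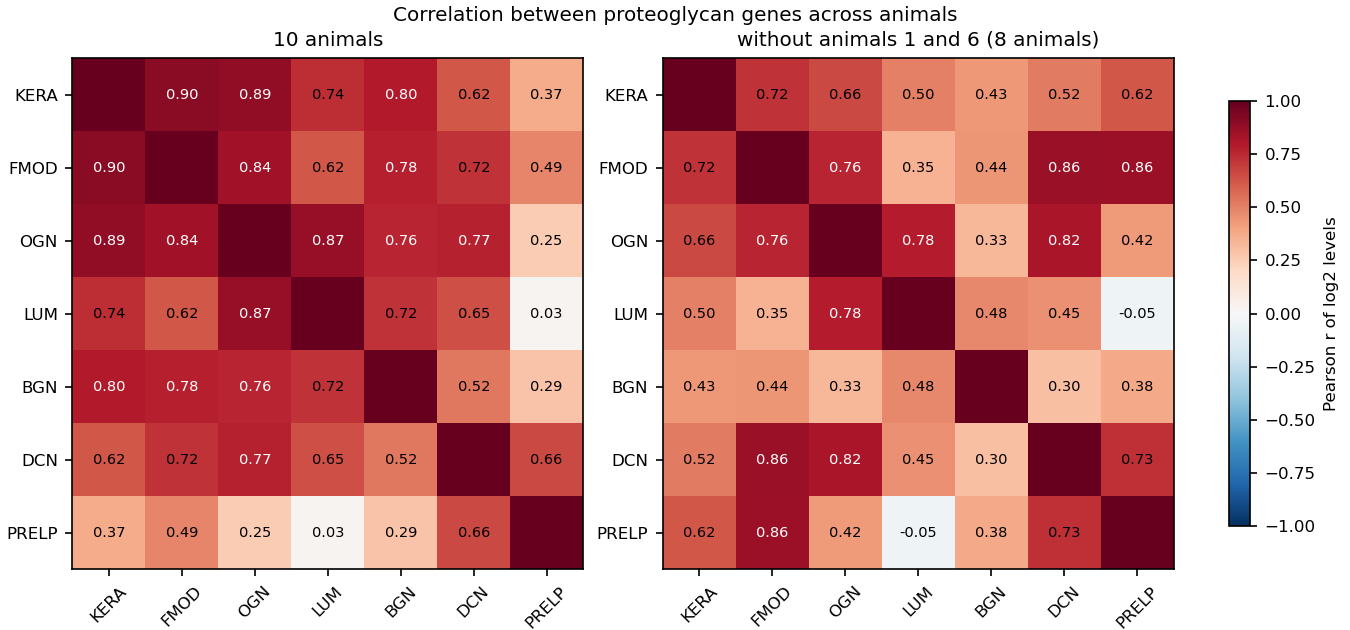
Pearson r between the log2 levels of each pair of proteoglycan genes over all 10 animals (left) and over the 8 animals without animals 1 and 6 (right); red is positive and blue is negative, on the scale from -1 to 1. The PRELP row is the palest on the left, and on the right FMOD with PRELP and FMOD with DCN both stand at 0.86, while BGN has no r above 0.48.

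FMOD and KERA were the pair with the highest r. It was 0.905 (permutation p = 0.00063), with rho = 0.806 (permutation p = 0.00777) over 10 animals, and r was 0.722 without animals 1 and 6, the 2 farthest from the median of FMOD. Among the 6270 other tested genes, KERA ranked 4 by r with FMOD and FMOD ranked 4 by r with KERA. In limma, with the level of FMOD in SD units as covariate, KERA had a slope of 1.16 log2 per SD (SE 0.17, adjusted p = 0.0809), and in the reverse fit FMOD had a slope of 0.96 (SE 0.14, adjusted p = 0.0568). Neither passed the threshold of 0.05 after Benjamini-Hochberg adjustment over all tested genes. Both directions passed once the poly(A) control difference was added as a covariate, at adjusted p = 0.0411 for KERA and 0.0406 for FMOD in limma. With single animals left out, KERA passed on the level of FMOD without animal 2 (adjusted p = 0.0366), and FMOD passed on the level of KERA without animal 5 (adjusted p = 0.0356). In each direction this was the only fit with a single animal left out that passed.

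OGN went with KERA, LUM and FMOD. With KERA its r was 0.885 (permutation p = 0.00087), with rho = 0.818 (permutation p = 0.00516), and r was 0.660 without the 2 animals farthest from the median of KERA. With LUM its r was 0.873 (permutation p = 0.00161), with rho = 0.758 (permutation p = 0.015), and r was 0.859 without animals 6 and 10, the farthest for LUM. On the level of OGN, LUM had a limma slope of 0.81 (SE 0.15, adjusted p = 0.0785) and KERA 1.13 (SE 0.18, adjusted p = 0.0691). KERA passed here once the poly(A) control difference was a covariate (adjusted p = 0.0432). With single animals left out, LUM passed only without animal 10 (adjusted p = 0.0369), and KERA in none of these fits. DCN had its highest rank correlation with OGN, at rho = 0.939 (permutation p = 0.00022) against r = 0.767 (permutation p = 0.0205), and r was 0.774 without animals 5 and 6.

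The r of DCN with the other members depended on animal 5. Its r with KERA was 0.624 (permutation p = 0.0543), with rho = 0.855 (permutation p = 0.00262), and was 0.922 without animal 5. For BGN the r with DCN was 0.524 (permutation p = 0.122), with rho = 0.600 (permutation p = 0.0737), and was 0.839 without animal 5. Animal 5 was the lowest of the 10 for DCN, but its KERA level was 7.52 against a mean of 7.76, and its BGN level 7.64 against a mean of 7.65. Without animal 5, KERA passed the test on the level of DCN, with a slope of 1.24 (adjusted p = 0.0362 in limma), where 3 of 6274 genes passed. No other fit with a single animal left out had a member past the test on DCN. Without animals 1 and 6, FMOD passed, with a slope of 0.56 (adjusted p = 0.0455), but so many genes did there (199 of 6255) that its call is not particular to it. PRELP had its highest r with DCN, 0.662 (permutation p = 0.0348), with rho = 0.624 (permutation p = 0.0609), and 0.632 without animals 5 and 6. Without animal 5 alone it was 0.483. By rho the partner with the highest value was FMOD, at 0.685 (permutation p = 0.0342), with r = 0.485 (permutation p = 0.154) and 0.857 without animals 1 and 6. With LUM the r of PRELP was 0.029 (permutation p = 0.94), with rho = -0.018 (permutation p = 0.972) and r = 0.262 without animals 6 and 10.

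Over the 7 limma fits on the level of 1 member, none of the other 6 members passed in any fit, and beyond the DCN fit no gene passed at all (0% of 6270 genes each for LUM, BGN, FMOD, KERA, OGN and PRELP). At an unadjusted p below 0.05, DCN had 5 of the 6 other members with a positive slope, where 11.9% of all genes were called. LUM also had 5 of 6 (background 6.08%), FMOD had 5 of 6 (3.46%), KERA had 5 of 6 (4.35%) and OGN had 5 of 6 (4.7%). BGN had 4 of 6 (4.13%). PRELP had 1 of 6, which was DCN, against a background of 6.08%. A Spearman correlation per gene called 0 genes after adjustment in each of the 7 fits, with 294 to 586 genes at an unadjusted p below 0.05.

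Several of the 7 genes lie side by side in the bovine genome. In the gene table of the ARS-UCD2.0 assembly, EPYC, KERA, LUM and DCN follow each other on 1 chromosome, FMOD is next to PRELP and then OPTC, and OGN is next to OMD and ASPN. Over the 10 animals the median r of all 21 member pairs was 0.72. Between such genes r was 0.74 for KERA and LUM, 0.65 for LUM and DCN, 0.62 for KERA and DCN and 0.49 for FMOD and PRELP. The last of these turned on animals 1 and 6: r between FMOD and PRELP was 0.730 without animal 1 and 0.857 without both. KERA and FMOD, with r = 0.90, are not neighbours in that table. The neighbour EPYC had a mean level of 5.90, OMD 5.37 and OPTC 4.96, all below the filter level. ASPN (asporin), the remaining neighbour, stood at 7.04 ± 0.70 (SD, n = 10), and TSKU (tsukushi), a more distant relative, at 7.92 ± 0.36 (SD, n = 10).

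The next comparison asked whether the proteoglycans varied with the fibrils they bind. A fibrillar collagen score was made for each animal as the mean deviation of COL1A1, COL1A2, COL3A1 and COL5A2, the genes of type I, III and V collagen chains, from their own means. It ran from -1.34 in animal 1 to 1.32 in animal 6, with the other 8 animals between -0.46 and 0.59. FMOD, KERA and BGN had the smallest p-values on it among the members, and FAP, a protease of activated fibroblasts, was the only one of 6267 genes to pass the test. FAP had a slope of 0.98 ± 0.13 log2 per score SD (SE, adjusted p = 0.0327 in limma). With an animal left out it passed in 5 of 10 fits; it did not pass without animal 1, 4, 6, 8 or 10, and its adjusted p ran up to 0.36.

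All 7 proteoglycan slopes on the collagen score were above 0, as were 52.5% of the slopes of all genes. KERA had 1.10 ± 0.20 log2 per SD (SE, adjusted p = 0.0711) and FMOD had 0.95 ± 0.15 (SE, adjusted p = 0.054). LUM followed with 0.73 ± 0.18 (SE, adjusted p = 0.197), BGN with 0.59 ± 0.10 (SE, adjusted p = 0.0711) and DCN with 0.57 ± 0.19 (SE, adjusted p = 0.398). OGN had 0.40 ± 0.09 (SE, adjusted p = 0.158) and PRELP 0.14 ± 0.15 (SE, adjusted p = 0.952). The median of the 7 slopes was 0.59, and that of all 6267 genes was 0.01. None of the 7 passed after adjustment, where 0.016% of all genes did. At an unadjusted p below 0.05 the 6 members other than PRELP were called by the probe sets used, where 4.77% of all genes were.

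**Figure D4:**
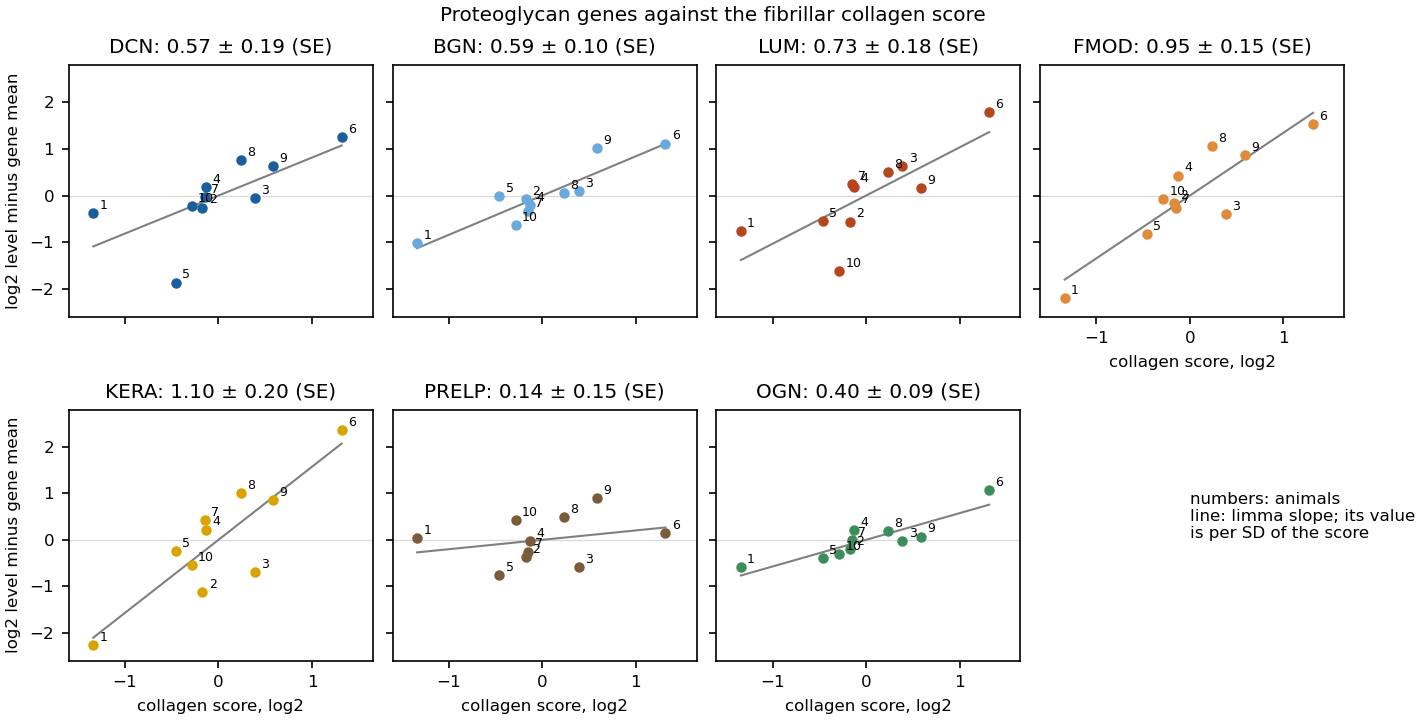
Level of each proteoglycan gene minus its mean (y axis, log2) against the fibrillar collagen score (x axis, log2) in the 10 animals, which are numbered; the grey line is the limma slope, given above each panel per SD of the score with its standard error. Animals 1 and 6 are the ends of the score, and the line is steepest for KERA at 1.10 and flattest for PRELP at 0.14; without these 2 animals the slopes were 0.34 and 0.30.

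These slopes leaned on the animals at the ends of the score. Without both animals 1 and 6, and per SD of the narrower score, DCN had the steepest slope at 0.58, followed by LUM at 0.49, FMOD at 0.41, BGN at 0.37, KERA at 0.34, PRELP at 0.30 and OGN at 0.14. None passed (adjusted p from 0.532 to 0.632), and KERA, OGN and PRELP had an unadjusted p above 0.05. Without animal 6 alone, LUM had 0.44 and OGN 0.22, and the adjusted p of the 7 ran from 0.36 to 0.997. Without animal 1 alone, FMOD had 0.62 (adjusted p = 0.232). In the other direction, FMOD and KERA passed without animal 3 (both adjusted p = 0.0202), and BGN passed without animal 5 (adjusted p = 0.0435). FMOD also passed with the score made of COL1A1, COL1A2 and COL3A1 only, at 0.98 (adjusted p = 0.0391 in limma). The second BGN probe set had a slope of 0.55 ± 0.35 (SE, unadjusted p = 0.145, adjusted p = 0.838 in limma), close in size to that of the first but with a larger error. The second PRELP probe set had 0.31 ± 0.13 (SE, unadjusted p = 0.0357, adjusted p = 0.594 in limma). By the second probe sets PRELP was thus below an unadjusted p of 0.05 and BGN was not.

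The other connective tissue genes on fixed lists were set beside the 7 in the same fit. Of 19 tested matricellular and elastic fibre genes, 0 passed and 12 had a positive slope at an unadjusted p below 0.05, with a median slope of 0.35. FN1 (fibronectin) had 0.69 ± 0.11 (SE, adjusted p = 0.054), and MGP, the matrix Gla protein that inhibits calcification, had 0.88 ± 0.16 (SE, adjusted p = 0.0711). Of 15 genes for collagen processing and crosslinking, 0 passed and 4 had a positive slope at an unadjusted p below 0.05 (PCOLCE, PLOD2, CRTAP and SERPINH1), with a median of 0.16. COL12A1 and COL15A1, 2 of the 3 tested fibril-associated and related collagens, had slopes of 0.47 ± 0.14 and 0.37 ± 0.11 (SE, adjusted p = 0.292 and 0.279).

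Genes that build or modify the sugar chains had slopes of both signs. Of 10 tested genes of glycosaminoglycan synthesis, 0 passed and the median slope was 0.01; at an unadjusted p below 0.05, 1 was positive (B3GNT2) and 1 negative (CHPF, a chondroitin polymerising factor). XYLT2, which adds the first sugar to the core protein, had 0.33 ± 0.19 (SE, adjusted p = 0.797). Among 9 large and other matrix proteoglycans 0 passed, the median was 0.05 and SRGN (serglycin, of blood cell granules) was the only one at an unadjusted p below 0.05. The relatives ASPN and TSKU had slopes of 0.26 ± 0.19 and -0.09 ± 0.12 (SE, adjusted p = 0.893 and 0.959). Of 11 genes of TGF-beta family signalling, whose ligand decorin, biglycan and fibromodulin bind, 0 passed, the median was 0.01 and TGFBR2 alone had an unadjusted p below 0.05. Of 9 matrix proteases and inhibitors 0 passed, the median was 0.13, and MMP2 and CTSK were at an unadjusted p below 0.05. Among 7 receptors and partners of the proteoglycans 0 passed, the median was 0.02, and CD14 was at an unadjusted p below 0.05.

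Markers of other cell types were read in the same way, since each can be a part of whole muscle. Of 14 fibroblast markers 1 passed, FAP, and 7 were at an unadjusted p below 0.05, with a median slope of 0.30; the mean deviation over the list was lowest in animal 5 (-0.41) and highest in animal 6 (0.55). Of 8 leukocyte markers 0 passed and 2 (CD14 and CD68) were at an unadjusted p below 0.05, with a median of 0.31 and a mean deviation from -0.88 in animal 5 to 0.82 in animal 6. Of 9 adipocyte markers 1, CIDEC, was at an unadjusted p below 0.05 and 0 passed (median 0.17). The 8 endothelial markers had none at that limit (median 0.08). Neither did the 12 skeletal muscle markers (median -0.01), whose mean deviation lay between -0.06 in animal 8 and 0.04 in animal 7. Their SDs ran only from 0.04 for TNNC1 to 0.17 for DES, at the top of the scale, so little slope on any score was possible. Of 8 smooth muscle and pericyte markers 2 were at that limit (median 0.23), and of 2 nerve markers both were, S100B and MBP, with slopes of 0.28 and 0.43. Of 3 cartilage and bone markers and 7 liver plasma protein genes none was, with medians of -0.13 and -0.11. Among the tendon markers TNMD had a mean of 5.17 and COMP 6.95, both below the filter level, and SCX and MKX had no matched probe set. THBS4, which muscle also expresses, was at 11.98 ± 0.58 (SD, n = 10) with a slope of 0.33 ± 0.15 (SE, adjusted p = 0.649), and TNC was the only one of 4 tested tendon markers at an unadjusted p below 0.05. What part the makeup of cells has in the proteoglycan levels was not tested.

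**Figure D5:**
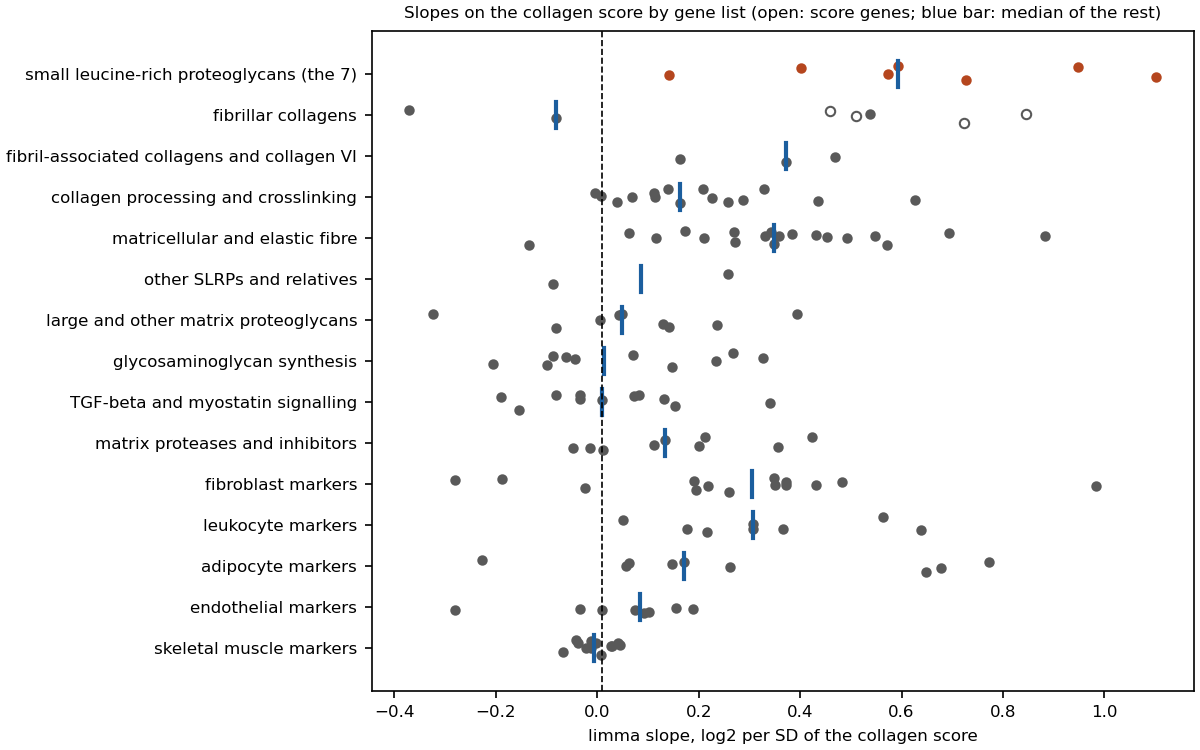
Limma slopes on the fibrillar collagen score (x axis, log2 per SD of the score) for the tested genes of each list (y axis), with 1 point per gene. Red points are the 7 proteoglycans, open circles are the collagens that make up the score, blue bars are medians of the other genes of a list and the dashed line is the median of all 6267 genes at 0.01. The proteoglycan bar stands at 0.59, and that of the skeletal muscle markers, whose levels hardly varied between animals, at -0.01.

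Fat inside the muscle is a trait for which Hanwoo beef is known, so the proteoglycans were also set against an adipocyte score of FABP4, ADIPOQ, CIDEC and CFD. Each fitted against the score without it, FABP4 and CIDEC passed (adjusted p = 0.00294 and 0.0445 in limma). ADIPOQ and CFD did not (adjusted p = 0.218 and 0.847). Of the 5 tested adipocyte markers outside the score, none had an unadjusted p below 0.05 on it. DCN, LUM and KERA had the smallest p-values of the 7, but no member passed. All 7 slopes were above 0, as were 55.5% of all slopes, with a median of 0.47 against 0.02 over all genes. KERA had 0.74 ± 0.30 log2 per SD (SE, adjusted p = 0.555), LUM 0.62 ± 0.21 (SE, adjusted p = 0.432) and DCN 0.58 ± 0.18 (SE, adjusted p = 0.388). These 3 were at an unadjusted p below 0.05, where 5.27% of all genes were. The second BGN probe set was also below it, at 0.76 ± 0.32 (SE, unadjusted p = 0.0334, adjusted p = 0.566 in limma). The second PRELP probe set had 0.03 ± 0.16 (SE, unadjusted p = 0.85 in limma). After adjustment 0.0479% of 6267 genes were called: G0S2, an inhibitor of lipolysis, at 1.17 ± 0.14 (SE, adjusted p = 0.00294), and the complement genes C1QA and C1QB at 0.84 and 0.55 (adjusted p = 0.00294 and 0.0445 in limma). Without animal 9 the count was 0, with 401 genes at an unadjusted p below 0.05, and by Spearman correlation it was also 0, with 504. FMOD, at 0.47 ± 0.28 (SE, adjusted p = 0.696), had a slope of -0.01 with the collagen score as a covariate, and 0 members were then at an unadjusted p below 0.05. Both scores had r = 0.512 (permutation p = 0.127, adjusted p = 0.612 over 6 relations between scores and array measures), with rho = 0.770 (permutation p = 0.0125) and r = 0.717 without the 2 animals farthest from the median.

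DCN was among the many genes called on the control measure that set animal 5 apart. On the 3' minus 5' difference of the poly(A) controls, DCN fell by 0.65 log2 per SD (SE 0.16, adjusted p = 0.0203 in limma), 1 of 7 members in a fit where 11.1% of 6271 genes fell. Without animal 5 the slope of DCN was -0.03 (adjusted p = 0.996), and 0 genes passed in limma, with 288 at an unadjusted p below 0.05. The other 6 members had slopes from -0.34 for FMOD to -0.04 for BGN, with adjusted p from 0.283 to 0.912. The second BGN probe set, also low in animal 5, had -0.76 ± 0.32 (SE, adjusted p = 0.144). The controls are added RNAs, so their difference does not measure the RNA of the muscle itself. Whether what set animal 5 apart in these controls accounts for its DCN level was not tested.

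Among the 7 genes, DCN was the only one whose level called other genes. In the fit on its level, 6 genes rose (0.0957% of 6270) and 0 fell: SERPINF1, RNASE6, FXYD5, S100A10, SRGN and ECM1. SERPINF1, the secreted antiangiogenic protein PEDF, had a slope of 0.91 ± 0.08 log2 per SD of DCN (SE, adjusted p = 0.000518 in limma). Its level ran from 7.91 in animal 5 over a median of 9.98 to 11.36 in animal 6, so that both ends were the same animals as for DCN. Their r was 0.980 with rho = 0.952, and r was 0.951 without animal 5 and 0.903 without animals 5 and 6. SERPINF1 did not pass by Spearman correlation, nor when the limma fit also took in the poly(A) control measure. In both of these settings 0 of 6270 genes passed with DCN. With all other settings kept, SERPINF1 passed in all 10 fits with an animal left out, with adjusted p up to 0.0362.

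The other 5 genes called with DCN passed in fewer of these fits. RNASE6, a ribonuclease of immune cells, had a slope of 1.29 ± 0.18 (SE, adjusted p = 0.0306) and passed in 6 of the 10 fits with an animal left out. FXYD5, a regulator of the sodium pump, had 0.73 ± 0.11 (SE, adjusted p = 0.0378), and S100A10, the partner of annexin A2, had 0.74 ± 0.12 (SE, adjusted p = 0.0421). SRGN and the extracellular matrix protein ECM1 had 0.56 and 0.54 (SE 0.09 each, both adjusted p = 0.0421). These 4 passed in 3 or 4 of the 10 fits, and none of them without animal 5, in which all 4 had their lowest level. RNASE6 did not pass without animal 5 either (adjusted p = 0.259 in limma). Its lowest level was also in animal 5, at 4.66, below the filter level. The count of genes past the test with DCN was 97 when animal 6 was left out, and 199 when both animals 1 and 6 were. It was 7, 10, 3 and 14 with animals 1, 3, 5 and 8 left out in turn, 2 with animal 7 or animal 10 left out, and 1 with animal 2, 4 or 9 left out. It was 0 once the poly(A) control difference was added to the fit, with 526 at an unadjusted p below 0.05. At an unadjusted p below 0.05 in the fit on DCN, where 11.9% of all genes rose, the lists with 8 or more tested genes had these counts of positive slopes: 13 of 19 matricellular and elastic fibre genes, 6 of 8 leukocyte, 5 of 9 adipocyte and 5 of 14 fibroblast markers, 4 of 15 collagen processing genes, 2 of 9 matrix proteases and inhibitors, 2 of 8 smooth muscle markers, 1 of 9 large proteoglycans and 1 of 8 endothelial markers. There were 0 of 10 glycosaminoglycan synthesis genes, 0 of 11 TGF-beta family genes and 0 of 12 skeletal muscle markers, the last of which hardly varied between animals.

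The genes most alike each of the other 6 members were taken as the 5 with the highest r over the 10 animals, a description without a test. For FMOD they were the microfibril gene MFAP2 (r = 0.928), COL15A1 (0.912), MYOC (0.908), KERA (0.905) and GLT8D2 (0.900). For KERA they were FAP (0.918), the laminin chain gene LAMB1 (0.915), MFAP2 (0.909), FMOD (0.905) and DKK3 (0.898). MFAP2 was also among the 5 of OGN, at 0.897, beside CCDC80 (0.936), the IGF binding protein gene IGFBP4 (0.932), IFT52 (0.930) and MPEG1 (0.891). MFAP2 thus stood among the nearest 5 of 3 members. Without the 2 animals farthest from the median of each member, its r was 0.957 with FMOD, 0.766 with KERA and 0.703 with OGN.

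For LUM the nearest genes were ACLY, the enzyme that makes cytosolic acetyl-CoA for fatty acid synthesis (r = 0.974), the collagen chaperone gene FKBP14 (0.966), OCIAD2 (0.937), VKORC1 (0.930) and the mitochondrial gene IMMT (0.919). ACLY kept r = 0.908 with LUM without animals 6 and 10. For BGN they were the imprinted noncoding RNA MEG3 (0.925), CYB561 (0.917), RCL1 (0.902), the glycolytic enzyme gene ENO1 (0.885) and ITFG1 (0.879). For PRELP they were the sugar phosphate enzyme genes GPI (0.921) and PGM1 (0.902), with the translation factor gene EIF3D (0.904), TXNDC5 (0.903) and the growth hormone receptor gene GHR (0.888). In limma none of these genes passed on the level of LUM, BGN or PRELP, with adjusted p from 0.0544 for OCIAD2 on LUM to 0.867 for ITFG1 on BGN.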

How the data were processed

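The authors deposited an intensity, on a linear scale, for each probe set of each array; the sources used here do not name the software that made it. Poly(A) RNA was labelled with biotin, per the labels. The mean intensity without the lowest and highest 2% of probe sets was 500.2 on every array, and array medians ran from 111 to 134. Values were turned into log2(signal + 16) and quantile normalized without the 112 control probe sets. Gene symbols came from the platform annotation; an ARS-UCD2.0 table changed 0 of them and gave gene neighbours. Genes with a mean above 6.98, the median of the other 24016 probe sets, were tested.

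Covariation was fitted with limma 3.58.1 in R 4.3.3 on all 10 arrays, with a score or a member's level in SD units as covariate and Benjamini-Hochberg adjustment over all tested genes. A score gene was fitted against the score without it. Permutation p-values of correlations are two-sided, from 100000 resamples. Those of the 21 member pairs are not adjusted for the number of pairs. The fits were tried on simulated data with known slopes and noise independent between genes. That setting lacks the single animals that stand apart over many genes here. The number of arrays limits the precision.

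The named genes are the 7 members, the 5 most alike each, the 5 others with the smallest p per score, and per list the brightest, the most variable and those past the test. Other genes named beside a count were chosen after their values were seen. The members and lists were chosen with earlier results of these data known. Of the adipocyte score genes, LEP was below the filter and PLIN1 was not matched; of the collagen score genes COL5A1 was not matched. A planned tendon score was not run, since 1 of its 6 genes, THBS4, was tested and 3 were required. Alternatives were other scaling, pseudocounts of 1 and 64, filters, the mean of probe sets, Spearman correlation, covariates, a score of 3 collagens and each animal left out. Leaving out animals 1 and 6, and using the other probe sets of BGN and PRELP, were chosen after seeing the data. No sequences were used.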

Additional observations from a re-analysis of the deposited data

Results flagged for a closer look

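In 26 measures checked over the 10 animals, 8 had 1 animal far from the others: the gap between it and its nearest neighbour, as a share of the whole range, was above the 95% limit of Dixon's test. Chance flags about 1 in 20 groups. For DCN the gap below animal 5 (10.56) was 0.481 of the range. For OGN the gap above animal 6 (11.13) was 0.518 of the range. Animal 5 was also apart in the 3' minus 5' difference of the poly(A) controls, where the gap was 0.851 of the range. Among the genes most alike DCN or past the test with it, animal 5 was the low end for FXYD5 (0.687 of the range), S100A10 (0.546), PI16 (0.499), SRGN (0.478) and ECM1 (0.467). These 5 genes were picked because they follow DCN, so their low value in animal 5 is not separate from that of DCN.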

How the results depend on the processing

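Counts are of genes past the test unless said. On the collagen score (1 gene) the count was 3 with a pseudocount of 64, and 0 without a filter, with the filter at the 75th percentile, by Spearman correlation, with the adipocyte score as a covariate or without animals 1 and 6. Its members past the test (0) were 1, FMOD, with a pseudocount of 64 or with COL1A1, COL1A2 and COL3A1 only. The 75th percentile filter left 4 members, of which 3 had an unadjusted p below 0.05 there (6 before) and 4 an SD above the median (7 before). On the adipocyte score (3 genes) the count was 10 with a pseudocount of 64 and 0 by Spearman correlation; with the collagen score as a covariate its members at an unadjusted p below 0.05 were 0 (3 before) and the slope of FMOD was -0.014.

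On DCN (6 genes) the count was 2 with arrays centred on their median, 14 with a pseudocount of 64, 1 without a filter, 10 with the 75th percentile filter, 1 with the mean of probe sets, 0 by Spearman correlation, 0 with the poly(A) difference as a covariate and 199 without animals 1 and 6. Over all 7 member levels (6 genes) the counts were 2, 16, 2, 11, 10, 0 and 199 in the same order, without the covariate, where it was 8. Members past the test with another member (0) were 1 with a pseudocount of 1 (FMOD on KERA), 1 with 64 (KERA on OGN), 2 with the mean of probe sets, 3 with the poly(A) covariate and 1 without animals 1 and 6. On the poly(A) difference (973 genes) the count was 617 without a filter and 0 by Spearman correlation, when 0 members were at an unadjusted p below 0.05 and 0 passed.

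With each animal left out, the count was 0 to 4 on the adipocyte score, 0 to 4 on the collagen score, 1 to 97 on DCN and over all member levels, and 0 to 1043 on the poly(A) difference, where it was 0 only without animal 5. Members past the test were 0 to 2 on the collagen score, 0 to 2 with another member and 0 to 1 on the poly(A) difference; members at an unadjusted p below 0.05 were 2 to 6 on the adipocyte score and 0 to 2 on the poly(A) difference. The causes of these changes were not tested. No paired analysis was possible because the samples form 1 group. Signal over background limits KERA, FMOD and BGN, which had values below the filter level.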

Other observations

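Other genes of matrix proteoglycans and their relatives differed widely in how much they varied between animals. SPOCK2, a testican that carries heparan sulfate, had a mean of 8.51 ± 1.23 (SD, n = 10) and ran from 6.47 to 10.45. SDC2, the cell surface proteoglycan syndecan-2, varied little, at 10.56 ± 0.22 (SD, n = 10). The prolyl hydroxylase subunit gene P4HA3, which acts on collagen, stood at 8.17 ± 1.05 (SD, n = 10). IBSP, known as a sialoprotein of bone, gave a bright signal in this muscle, at 14.28 ± 0.37 (SD, n = 10) and at least 13.33 in every animal. Its probe set was taken as annotated, and no second source for its identity was used.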
